A study of Mus musculus with 9 samples.

Results

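The 40 genes described here act in mitosis: cyclins and kinases that start it, kinetochore and spindle proteins that carry it out, and proteins of cytokinesis. They were taken by symbol from a list of 40 names, which was drawn up with earlier results of these data known. All 40 were found among the 23951 genes of both expression tables. RNA was sequenced from 9 libraries of jejunal crypts of mice, 3 in each of 3 groups. The Smad4 KO mice had the genotype Smad4f/f;Villin-CreER(T2), that is, floxed Smad4 alleles and a tamoxifen-inducible recombinase that the Villin promoter drives in intestinal epithelium. The double mutants, Smad4f/f; Ex3f/+;Villin-CreER(T2), carried in addition 1 Ex3 allele, in which recombination removes exon 3 of Ctnnb1 and so stabilises beta-catenin. Both mutant groups received tamoxifen for 4 days and were collected 1 day later. The controls are labelled as control mice given vehicle, whereas the design text calls them uninjected. Tamoxifen and the recombinase are stated for the mutants only, so their effects cannot be told apart from those of the genotype. The labels give neither strain nor age, and nothing says that each library came from its own mouse, so p-values measure the spread between these libraries, which may be technical.

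Crypts hold the dividing cells of the intestinal epithelium, the stem cells at the base and the transit-amplifying cells above them. Most mitotic genes are transcribed in a wave that begins in late S phase and peaks in G2 and M, when B-type cyclins with Cdk1 drive entry into mitosis. The wave is timed by the DREAM and MuvB complexes, with B-MYB and FOXM1, at promoter elements named CHR, often beside CCAAT boxes bound by NF-Y. At anaphase the anaphase-promoting complex with Cdc20 marks securin and cyclin B for destruction, separase (Espl1) cuts cohesin, and the cell divides.

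Levels are FPKM, fragments scaled by transcript length and library size, and fold changes are differences of log2(FPKM + 1). Control and Smad4 KO libraries stood in one table and the same controls with the double mutants in another, normalized separately, so control values differ slightly between the comparisons (by factors of 1.03 to 1.06). Read depth is unknown. The FPKM of a library added up to between 568081 and 752340 in the Smad4 KO table, and to between 573491 and 758719 in the other. Smad4 checked the labels of mutants against controls: it was 49.8 ± 5.02 (SD, n = 3) in controls and 10.6 ± 0.56 (n = 3) in Smad4 KO. In the double mutant comparison it was 52 ± 5.96 (n = 3) against 10.4 ± 0.64 (n = 3). It does not tell the mutant groups from each other. Ctnnb1 had log2 fold changes of 0.11 in Smad4 KO and -0.14 in double mutants, neither significant. The label of the Ex3 allele was thus not checked. The stem cell markers Lgr5, Olfm4 and Ascl2 were present in all libraries. Library Smad4 KO 0 stood apart from the other 8 in markers: its 6 Paneth cell genes summed to 9238 FPKM against 48780 to 129829 in the controls, its 5 stem cell genes to 361 against 725 to 1664, and its 10 enterocyte genes to 14080 against 3659 to 10442. A list of 9 stromal, muscle and endothelial genes summed to 88.8 and 56.3 FPKM in Smad4 KO 2 and double mutant 0. In any control it summed to at most 9.24, and in Smad4 KO 0 to 23.3. The largest in Smad4 KO 2 were the stromal genes Dcn (47.8) and Vim (21.2). Its muscle and endothelial genes stayed low, with Acta2 at 0.467, Myh11 at 0.165, Pecam1 at 0.904 and Kdr at 0.0631. Col1a1 and Acta2 were listed at 0 in control 0. Counts of called genes are given with and without these libraries. By sex-linked transcripts, the controls were 1 female and 2 male and each mutant group 2 female and 1 male.

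Promoter sequences are shown for genes that the expression results turn on, since the timing of mitotic genes is set at such elements. RefSeq windows of assembly GRCm38.p6, running from 250 bases before to 50 after a gene's start, were matched by symbol for 33 of the 40 genes (36 windows). Tpx2, Ccna2, Kif20a, Cdc25c, Incenp, Aurkb and Foxm1 are named only. The expression values were made on mm9, so the coordinates below belong to RefSeq alone. Each line gives the 120 bases before the start, 5′ to 3′ on the gene's strand. Capitals mark the CHR letters TTTGAA or TTCGAA and the letters CCAAT, or their complements TTCAAA and ATTGG where the match is on the other strand. TTCGAA reads the same on both strands. The first 6 genes rose in the double mutants, Cdk1 is the kinase that drives entry into mitosis, and Nusap1 is the member with the lowest fold change in both comparisons.
Gtse1, chr15:85859587-85859706, plus strand: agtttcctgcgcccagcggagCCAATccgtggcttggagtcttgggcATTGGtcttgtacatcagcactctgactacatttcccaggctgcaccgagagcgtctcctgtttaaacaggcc
Plk1, chr7:122159315-122159434, plus strand: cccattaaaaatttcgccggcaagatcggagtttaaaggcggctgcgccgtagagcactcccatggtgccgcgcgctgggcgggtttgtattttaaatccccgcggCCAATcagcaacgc
Cdc20, chr4:118437344-118437463, minus strand: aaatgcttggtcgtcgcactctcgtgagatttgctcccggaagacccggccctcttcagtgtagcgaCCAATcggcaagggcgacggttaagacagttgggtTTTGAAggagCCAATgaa
Espl1, chr15:102296173-102296292, plus strand: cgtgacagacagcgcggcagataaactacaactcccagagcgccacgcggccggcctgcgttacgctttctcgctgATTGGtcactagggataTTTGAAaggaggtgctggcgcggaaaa
Cenpa, chr5:30666766-30666885, plus strand: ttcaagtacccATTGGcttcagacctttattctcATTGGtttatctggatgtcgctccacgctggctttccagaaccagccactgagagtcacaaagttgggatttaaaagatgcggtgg
Birc5, chr11:117849117-117849236, plus strand: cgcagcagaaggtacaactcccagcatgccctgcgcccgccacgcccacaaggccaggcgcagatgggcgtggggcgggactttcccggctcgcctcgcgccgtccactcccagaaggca
Cdk1, chr10:69352913-69353032, minus strand: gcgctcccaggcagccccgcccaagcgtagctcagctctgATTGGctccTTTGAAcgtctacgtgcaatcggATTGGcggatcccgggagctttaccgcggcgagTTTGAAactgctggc
Nusap1, chr2:119618178-119618297, plus strand: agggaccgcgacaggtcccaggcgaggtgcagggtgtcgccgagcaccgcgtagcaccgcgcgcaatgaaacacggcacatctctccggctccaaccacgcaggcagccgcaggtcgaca

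In these lines Cdc20 held the CHR letters from -18 to -13, counted from the base before the start as -1, with CCAAT on either side. Espl1 had the CHR letters from -27 to -22 with ATTGG upstream. Cdk1 held 2 copies of TTTGAA, the nearer from -15 to -10. In Plk1 and Cenpa the CHR letters lay past the start, at 31 to 36 and at 17 to 22, outside the stretches printed. Gtse1 had CCAAT letters and no CHR letters in either of its 2 RefSeq windows. The third CCAAT of the window printed for Gtse1 spans the start and so is not capitalised. Birc5 and Nusap1 held neither set of letters in the whole window, as did Mad2l1 and Nuf2.

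Over the 36 windows, 27 (75%) held CHR letters on either strand, against 13.9% of the 11097 windows of genes tested in the double mutant table and 19.2% of all 32851 windows. CCAAT was found on either strand in 29 (80.6%), against 37.9% and 37.4%. Both sets were found in 24 (66.7%), against 5.69% and 7.52%. Each set was searched on its own, so matches of the 2 sets may overlap. The expression changes of genes with and without the letters were not tested against each other. The 25 genes with CHR letters had a median log2 fold change of 0.28 in the double mutants with 4 called, and the 8 without had 0.35 with 2 called. The 26 genes with CCAAT had a median of 0.33 with 5 called, and the 7 without had 0.19 with 1 called. A match of letters is a description and not a site shown to be bound.

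**Figure D1:**
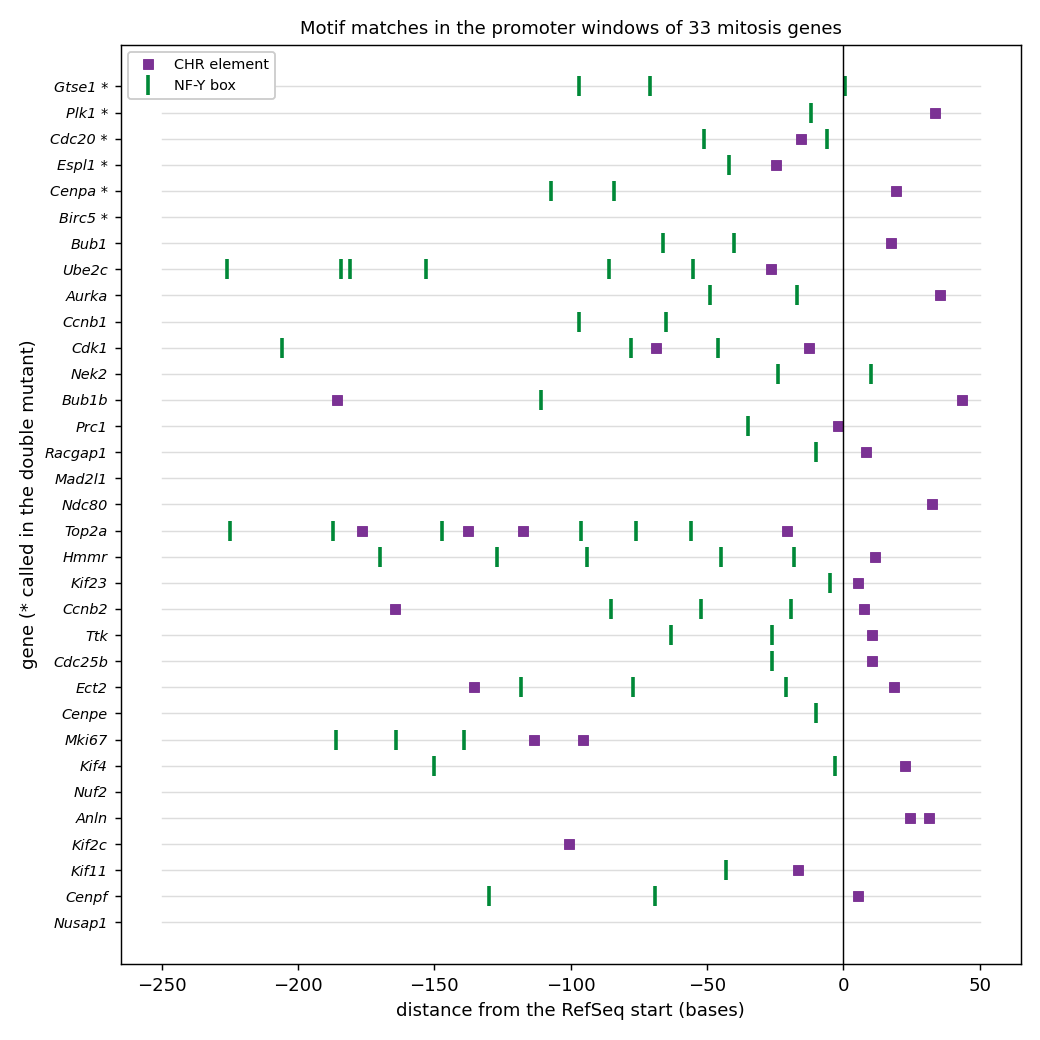
Positions of CHR (squares) and NF-Y box (bars) matches in RefSeq windows of 33 mitosis genes, in bases from the start, with genes ordered by log2 fold change in the double mutants and asterisks on those called. Gtse1 has 2 windows, of which the first is drawn, with NF-Y boxes and no CHR match. Birc5, Mad2l1, Nuf2 and Nusap1 have no match at all.

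In control crypts all 40 genes were expressed, with mean levels in the Smad4 KO table from 6.64 FPKM (Cdc25c) to 80.3 FPKM (Top2a). Top2a, which untangles chromosomes, Ube2c, the ubiquitin-conjugating enzyme of the anaphase-promoting complex, at 80.1, and Birc5 (survivin) at 61.1 were highest. Cdc25c, Gtse1 (6.74) and separase (Espl1, 6.79) were lowest. The order of close neighbours is within the spread: Top2a was 80.3 ± 17 and Ube2c 80.1 ± 16.9 (SD, n = 3).

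The controls were not alike. Control 1 had the highest value of the 3 controls for 38 of the 40 genes in each table, where 33.2% of the 11849 genes tested in the Smad4 KO table and 37.1% of the 11762 tested in the double mutant table had it highest. Its level was 1.49 times the mean of controls 0 and 2 at the median of the 40 genes in the first table (0.975 to 2.03) and 1.52 times in the second (0.996 to 2.07). The exceptions were Plk1 and Cdc25b. Cdc25b, a phosphatase that activates Cdk1, was nearly flat at 18.4, 17.8 and 18.1 FPKM in controls 0, 1 and 2. Ccnb1, cyclin B1, was 6.9, 11.9 and 6.19 FPKM, so that control 1 stood well above the other controls. The median SD of the 40 genes over the controls was 0.32 on the log2 scale, against 0.18 for all genes tested, so changes in this group are measured against a wide control spread.

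**Figure D2:**
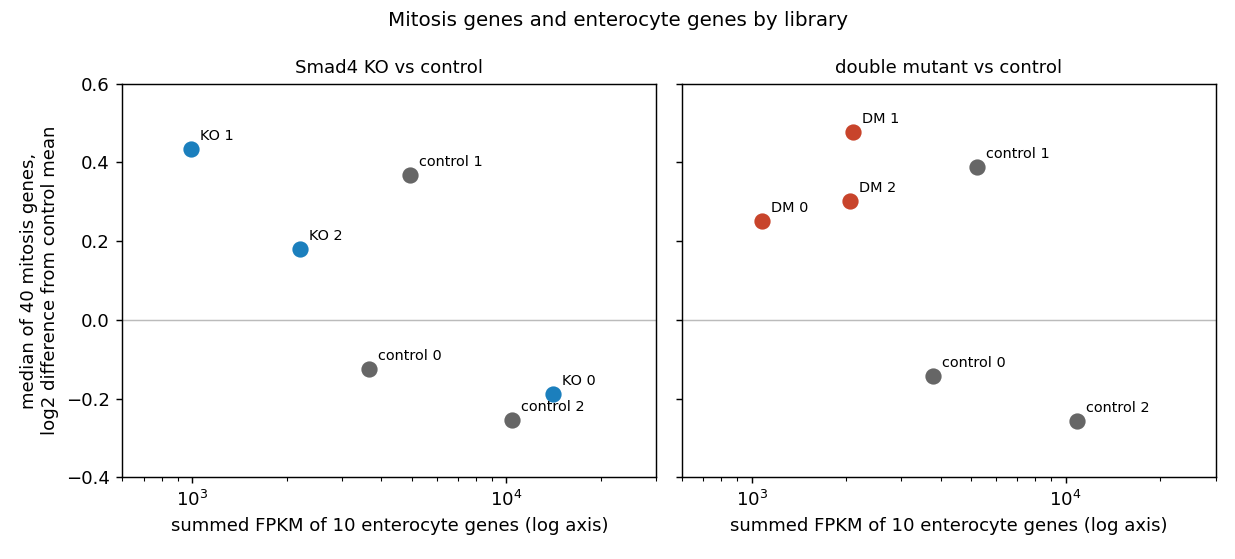
Median over 40 mitosis genes of the log2 difference from the control mean (vertical axis) against the summed FPKM of 10 enterocyte genes (horizontal log axis), 1 point per library, 1 panel per table. Control 1 lies at 0.37 and 0.39, apart from controls 0 and 2, and Smad4 KO 0 lies among the low controls at -0.19.

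In double mutant crypts 7 of the 40 mitosis genes rose and none fell, by limma with Benjamini-Hochberg adjusted p below 0.05. They were Gtse1, Plk1, Incenp, Cdc20, Espl1, Cenpa and Birc5, with increases of 0.55 to 1.42 on the log2 scale. Of all 11762 genes tested, 9.39% were called higher and 9.09% lower, so the 17.5% of the mitosis genes called higher is to be read against the first of these. The direction was wider than the calls: 39 of 40 fold changes were positive, against 49.9% of all genes. Their median was 0.33 (range -0.25 to 1.42) against -0.00132. Most of these genes moved together from library to library, so their signs are not separate observations. Control 1 alone had 39 of the 40 above the control mean. In 11 genes (27.5%) every double mutant library lay above every control, against 21.3% of all genes, and in none did every one lie below, also against 21.3%. At an unadjusted p below 0.05, 13 genes (32.5%) were higher, against 18.2% of all genes, and none was lower, against 18.4%.

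The count of 7 depended on the libraries used. Without control 1 it was 18, and these held all 7. Without control 0 or without control 2 it was 3 (Gtse1, Incenp and Plk1). Without double mutant 0, which held more stromal RNA, only Gtse1 was called. Without double mutant 1 it was 2 (Gtse1 and Plk1), and without double mutant 2 it was 0, with Gtse1 at an adjusted p of 0.0511. Fold changes moved less than calls: the median over the 40 genes lay between 0.23 and 0.53 in these fits, with the highest value without control 1. With sex as a covariate 5 were called, without Espl1 and Cenpa. Cenpa was also lost without a mean-variance trend, and Birc5 when the Smad4 KO libraries were added to the estimate of the spread, which left 6 in each case. No filter on low values left 3.

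Among the cyclins, Cdk1 and its phosphatases, all 6 fold changes were positive and none was called. Cdk1 was 29.1, 42.2 and 26.5 FPKM in controls 0, 1 and 2 and 43.9, 44.3 and 39.1 in double mutants 0, 1 and 2 (log2 fold change 0.40, SE 0.18, adjusted p = 0.169). Control 1 lay inside the double mutant range, and the other controls below it. Ccnb1 was 7.11, 12.6 and 6.46 against 11.5, 12.5 and 10.4 (0.40, SE 0.24, adjusted p = 0.267), with control 1 slightly above every double mutant library. Cdc25b was 19, 18.8 and 18.8 against 23.7, 21.6 and 22 (0.24, SE 0.08, adjusted p = 0.0835). Its groups did not overlap although the difference was small. Ccnb2 (0.27), Ccna2 (0.31) and Cdc25c (0.43) overlapped the controls.

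The mitotic kinases were all higher in mean, and Plk1 was called. Polo-like kinase 1 (Plk1), which acts in centrosome maturation, spindle assembly and cytokinesis, was 32.3, 30.5 and 23.9 FPKM in controls 0, 1 and 2 and 50.3, 52.5 and 52.9 in the double mutants. Every double mutant library lay above every control, and control 1 was not the highest control. Its mean rose from 28.9 ± 4.43 to 51.9 ± 1.38 (SD, n = 3 each; log2 fold change 0.83, SE 0.13, adjusted p = 0.0164). A spindle kinase, Aurka, was 25.2, 36.1 and 23.7 against 37.3, 43.2 and 35.3 (0.45, SE 0.18, adjusted p = 0.123), with double mutant 2 below control 1. Bub1, a checkpoint kinase, had a fold change of 0.53 (adjusted p = 0.0964). The other checkpoint kinases, Bub1b (0.35) and Ttk (0.25), and the centrosomal kinase Nek2 (0.39) overlapped the controls.

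The chromosomal passenger complex, which corrects faulty attachments of chromosomes to the spindle, has 3 subunits among the 40 genes, Incenp, Birc5 and Aurkb. In each of them every double mutant library lay above every control, as it did in 21.3% of all genes. Incenp, its scaffold, was 25.8, 30.8 and 23.5 FPKM in the controls and 42.2, 44.5 and 42.2 in the double mutants. Its mean rose from 26.7 ± 3.69 to 43 ± 1.31 (SD, n = 3 each; log2 fold change 0.67, SE 0.12, adjusted p = 0.0195). Birc5, the subunit that docks the complex on centromeres, was 59.7, 75 and 57 against 96.6, 95.5 and 87.9. The lowest double mutant library exceeded the highest control, and the mean rose from 63.9 ± 9.68 to 93.3 ± 4.71 (0.55, SE 0.13, adjusted p = 0.0367). Aurkb, the kinase of the complex, was 29, 39.6 and 25.4 against 41.9, 43.1 and 42.2 (0.45, SE 0.16, adjusted p = 0.105). Aurkb was not called: its double mutant libraries were close together, but control 1 came within a few FPKM of them.

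At anaphase, Cdc20 and Espl1 rose. Cdc20, the activator of the anaphase-promoting complex and the target of the spindle checkpoint, was 26.8, 35.1 and 24.3 FPKM in the controls and 46.2, 46.4 and 42.2 in the double mutants (28.7 ± 5.68 to 44.9 ± 2.35, SD, n = 3 each; log2 fold change 0.64, SE 0.15, adjusted p = 0.035). Separase (Espl1) was 6.14, 8.69 and 6.49 against 10.4, 11.4 and 11.3 (7.11 ± 1.38 to 11 ± 0.545; 0.58, SE 0.14, adjusted p = 0.0374). For both genes all double mutant libraries lay above all controls. Ube2c was 76.1, 105 and 70.2 against 124, 124 and 108 (0.52, SE 0.17, adjusted p = 0.083), also without overlap. The checkpoint protein Mad2l1, which holds back Cdc20, overlapped the controls (0.31).

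Of the 7 kinetochore and centromere genes, Cenpa was called. Cenpa, the histone H3 variant that marks centromeres, was 39.3, 50.2 and 40.4 FPKM in the controls and 75, 62 and 56.8 in the double mutants. Groups did not overlap, and double mutant 0 was the highest. The mean rose from 43.3 ± 6.03 to 64.6 ± 9.39 (SD, n = 3 each; log2 fold change 0.57, SE 0.15, adjusted p = 0.0467). The outer kinetochore proteins Ndc80 (0.30) and Nuf2 (0.19), which bind microtubules together, the kinetochore motor Cenpe (0.23) and Cenpf (0.05) were not called.

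None of the 6 kinesins was called, and their fold changes ran from 0.11 (Kif11, the motor that separates spindle poles) to 0.39 (Kif20a, a motor of the central spindle). Kif23, the centralspindlin motor, had 0.27, Kif2c, which depolymerises microtubules, 0.17, and Kif4, the chromokinesin, 0.20. The cytokinesis genes Anln (0.17), Ect2 (0.23), Racgap1 (0.32) and Prc1 (0.34) were likewise not called. Neither were the proliferation marker Mki67, at 42.1, 63.5 and 37.8 against 47.1, 63.1 and 54 FPKM (0.22, SE 0.22, adjusted p = 0.504), and Top2a (0.28, adjusted p = 0.315).

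Spindle assembly factors held both extremes of the 40 genes. Gtse1, a microtubule-binding protein of S and G2 phase that also restrains p53, was 7.09, 8.08 and 5.98 FPKM in controls and 21.2, 19.5 and 20.4 in double mutants. The lowest double mutant library was far above the highest control. The mean rose from 7.05 ± 1.05 to 20.4 ± 0.875 (SD, n = 3 each; log2 fold change 1.42, SE 0.12, adjusted p = 0.00694). Nusap1, a microtubule-bundling protein, was 20.1, 35.6 and 18.9 against 17.7, 23.9 and 18.6 (-0.25, SE 0.26, adjusted p = 0.513), with groups that overlapped. It was the only member with a negative fold change, and without control 1 the value was 0.03. Tpx2, the activator of Aurora A, had 0.39 and Hmmr 0.27, neither called. The transcription factor Foxm1, which drives many of these genes, was 14, 19.6 and 13.4 against 22.7, 22.4 and 21.7 (0.50, SE 0.15, adjusted p = 0.0648), with no overlap. For each gene whose groups did not overlap, the exact two-sided permutation p was 0.1, the smallest that 3 against 3 libraries allow.

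**Figure D3:**
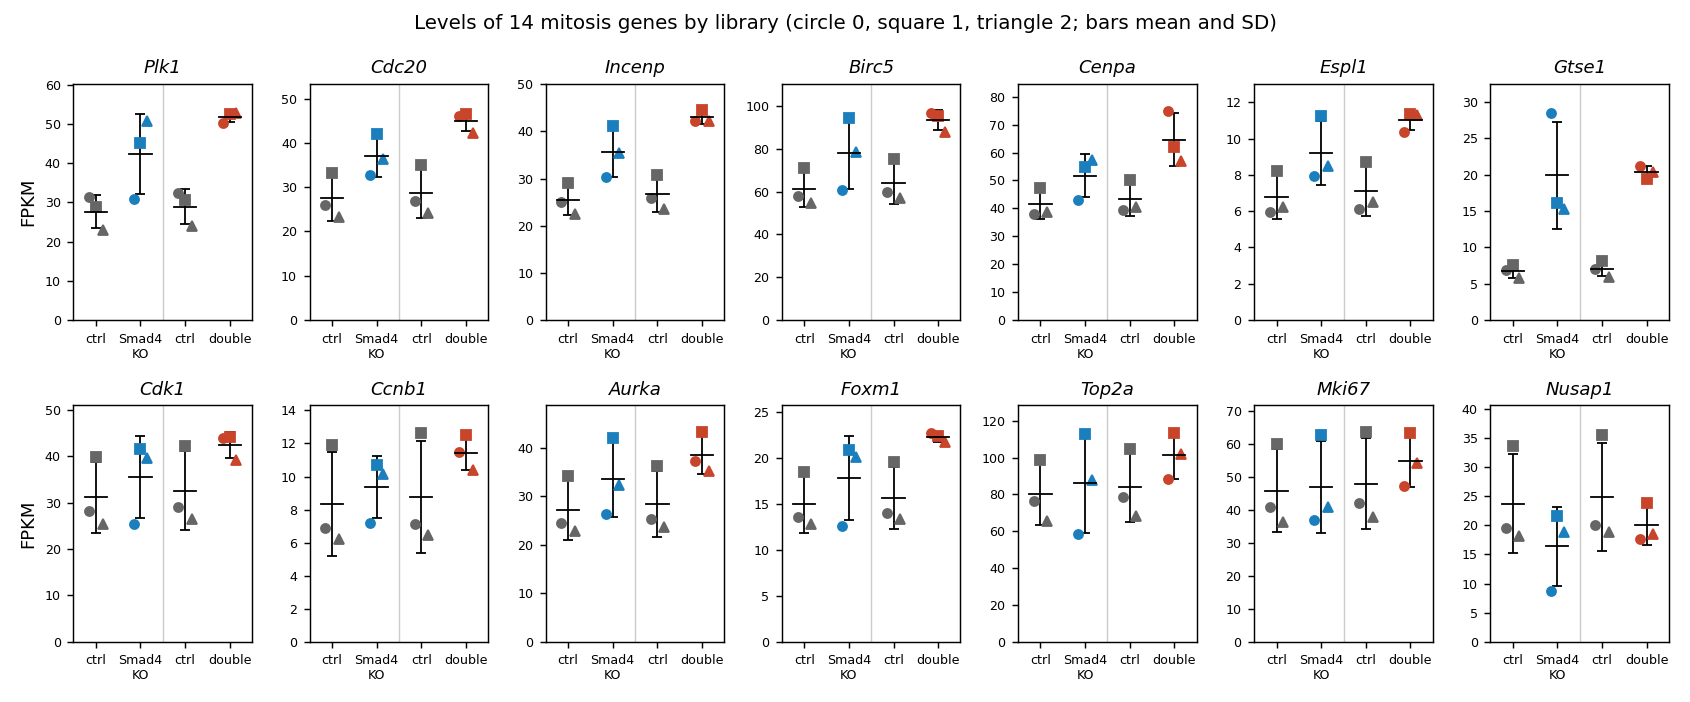
FPKM of 14 mitosis genes in each library (circle 0, square 1, triangle 2), with mean and SD of 3 libraries, control and Smad4 KO at the left of each panel and control and double mutant at the right. In the panels of Plk1, Cdc20, Incenp, Birc5, Cenpa, Espl1, Gtse1 and Foxm1 the double mutants lie above every control. In those of Ccnb1, Mki67 and Nusap1 control 1 lies above every double mutant.

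The spread within the double mutants was small: the median SD of the 40 genes was 0.14 on the log2 scale, near the 0.14 of all genes, whereas in the controls it was 0.34 against 0.18. Relative to the control mean, 34, 40 and 39 of the 40 genes were higher in double mutants 0, 1 and 2. The median differences of these libraries were 0.25, 0.48 and 0.30 on the log2 scale. Control 1 had 39 genes above the control mean and a median of 0.39, higher than double mutants 0 and 2. By library medians the groups thus overlapped. In these bulk samples, fewer cells of a type and less RNA per cell cannot be told apart. Other cell types moved with the result. All 10 enterocyte markers were lower in the double mutants and 9 were called, where 9.09% of all genes were called lower, with sums of 1076 to 2101 FPKM against 3773 to 10891 in controls (median log2 fold change -1.99). Of the 9 immune markers tested, 5 were called lower, with sums of 457 to 913 against 588 to 1426. No enterocyte marker was at 0 in any library, and the B cell marker Cd79a was listed at 0 in double mutant 1. Of the 5 stem cell markers, 2 (Lgr5 and Smoc2) were called higher, where 9.39% of all genes were, with sums of 1015 to 1682 against 757 to 1763. Of 5 goblet cell markers, 1 (Clca3) was called lower. None of the Paneth, tuft or enteroendocrine markers was called, with negative fold changes for all 6 Paneth (median -0.77) and all 4 tuft markers (-0.88) and positive ones for all 5 enteroendocrine markers (0.53). Their part in the result was not tested.

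In Smad4 KO crypts none of the 40 mitosis genes was called higher or lower by limma, where 0.00844% (1 gene) and 0.0253% (3 genes) of all 11849 genes tested were called. At an unadjusted p below 0.05, 4 were higher, which is 10% against 9.76% of all genes, and none was lower, against 9.34%. Fold changes were positive for 34 of 40, against 49.6% of all genes, with a median of 0.14 (range -0.54 to 1.39) against -0.00324. Here too most genes moved together by library, so their signs are not separate observations. In 2 genes, Gtse1 and Incenp, every Smad4 KO library lay above every control, which is 5% against 14.2% of all genes, and in none did every one lie below, against 12.2%. Without Smad4 KO 0 there was still no call, and 39 of 40 were positive with a median of 0.32. Without Smad4 KO 2, 32 were positive with a median of 0.11. Leaving out Smad4 KO 1 brought the positive genes to 21 and the median to 0.03, and leaving out control 2 to 22 and 0.04. Without control 0 the values were 27 and 0.07, and without control 1 they were 39 and 0.33.

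The libraries of this group disagreed with each other. Relative to the control mean, 9 of the 40 genes were higher in library Smad4 KO 0, 39 in library 1 and 34 in library 2, with median differences of -0.19, 0.43 and 0.18 on the log2 scale. The summed enterocyte markers of these libraries were 14080, 992 and 2205 FPKM, and all 10 of those markers were lower in mean than in controls, with none called (median log2 fold change -1.004). Fold changes were also negative for all 6 Paneth (median -0.91) and all 4 tuft markers (-0.89) and positive for all 5 enteroendocrine markers (0.66), with none called. Their part in the result was not tested. The median SD of the 40 genes was 0.35 in Smad4 KO, against 0.21 for all genes.

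Gtse1 had the largest fold change of the 40 in Smad4 KO. Controls 0, 1 and 2 had 6.88, 7.62 and 5.73 FPKM, and the Smad4 KO libraries 0, 1 and 2 had 28.5, 16.1 and 15.3. All Smad4 KO libraries lay above all controls, and the highest was Smad4 KO 0. The means were 6.74 ± 0.954 and 20 ± 7.37 (SD, n = 3 each; log2 fold change 1.39, SE 0.25, adjusted p = 0.111, exact permutation p = 0.1). Without Smad4 KO 0 the fold change was 1.12 (adjusted p = 0.11). When the double mutants were added as an extra group that enters only the estimate of the spread, Gtse1 was the single member called. Smad4 KO 0 also stood out for Cdkn1a, the p53-induced inhibitor of cyclin-dependent kinases, at 241 FPKM against 48 and 61.5 in the other Smad4 KO libraries and 53.9 to 72.8 in controls. In the double mutants Cdkn1a was 68, 60.8 and 56 FPKM, against 57.1 to 75.9 in the controls of that table.

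The members called in the double mutants had smaller fold changes here, though for Gtse1 the values were close (1.39 against 1.42). They were picked by their double mutant p-values, which by itself favours larger values there. Incenp was 25, 29 and 22.6 FPKM in controls against 30.4, 41 and 35.3 (log2 fold change 0.46, SE 0.15, adjusted p = 0.2), without overlap. Plk1 was 31.3, 28.8 and 22.9 against 30.9, 45.2 and 50.8 (0.58, SE 0.22, adjusted p = 0.239). For Plk1 the libraries Smad4 KO 1 and 2 lay above all controls and Smad4 KO 0 lay among them. Cdc20 was 26, 33.1 and 23.3 against 32.7, 42 and 36.4 (0.43, SE 0.17, adjusted p = 0.249), with Smad4 KO 0 just below control 1. Espl1 (0.39), Birc5 (0.33) and Cenpa (0.31) also overlapped the controls. Whether Smad4 KO and double mutants differ was not tested, since their tables were normalized separately and share the controls.

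Cdk1 and the proliferation marker Mki67 lay within the control range or near it. Cdk1 was 28.3, 39.9 and 25.4 FPKM in controls against 25.4, 41.6 and 39.7 in Smad4 KO (log2 fold change 0.18, SE 0.25, adjusted p = 0.725). Mki67 was 40.8, 59.9 and 36.2 against 36.9, 62.7 and 40.9 (0.03, SE 0.27, adjusted p = 0.963). Both groups spanned nearly the same range for Mki67, with library 1 the highest in each. The mitotic kinases Aurka (0.29), Bub1 (0.31), Nek2 (0.24), Aurkb (0.23), Bub1b (0.10) and Ttk (0.09) were not called.

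The 6 members with a negative fold change in Smad4 KO were Nusap1, Cenpf, Ccna2, Kif11, Kif2c and Nuf2. Nusap1 was 19.5, 33.6 and 18.1 FPKM in controls against 8.72, 21.6 and 18.9 in Smad4 KO (-0.54, SE 0.39, adjusted p = 0.492). Smad4 KO 0 was far below all controls, while the others lay inside their range, and without Smad4 KO 0 the value was -0.17. Of the others, Cenpf (-0.14), Ccna2, cyclin A2 (-0.13), Kif11 (-0.05) and Kif2c (-0.03) overlapped the controls, as did Nuf2, whose fold change was -0.0039.

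**Figure D4:**
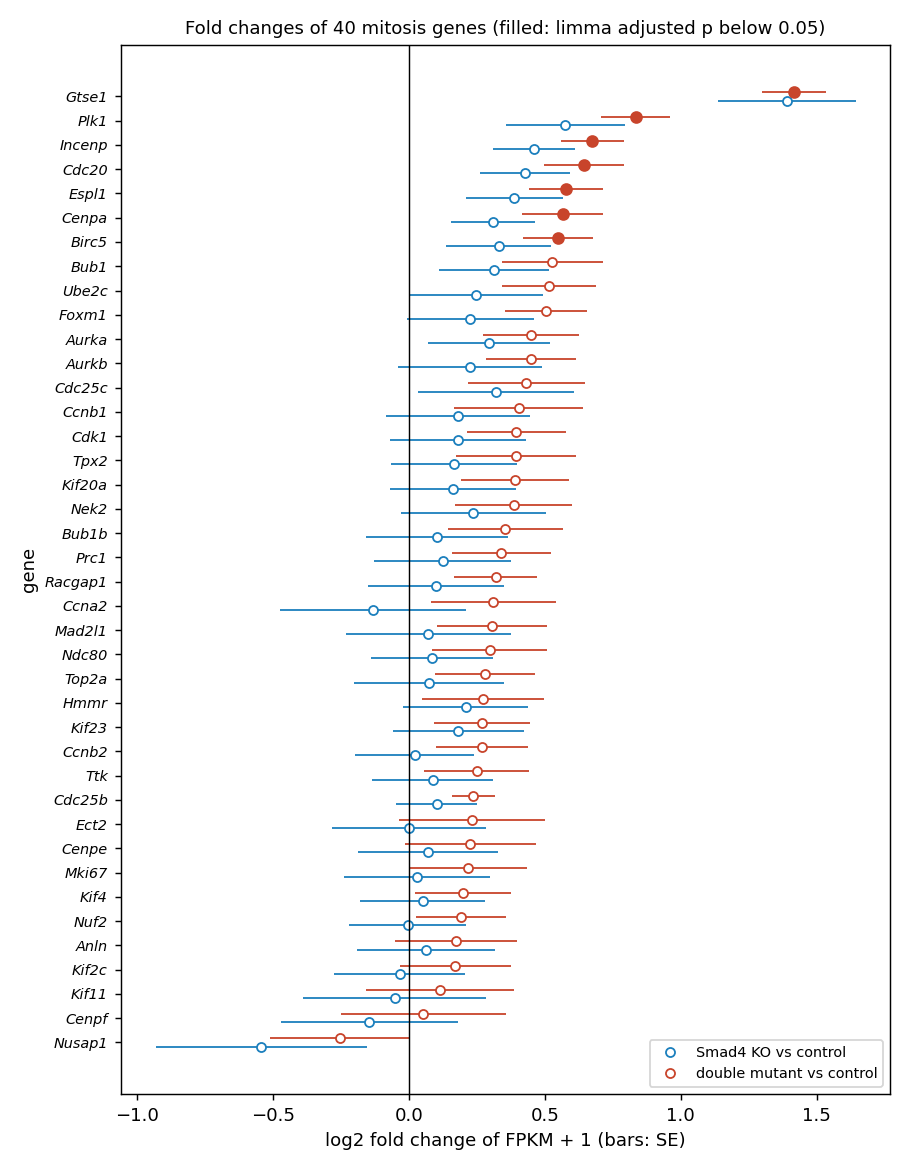
Log2 fold change of FPKM + 1 with SE for 40 mitosis genes, Smad4 KO against control in blue and double mutant against control in red, filled where the limma adjusted p was below 0.05. Gtse1 is highest and Nusap1 lowest in both comparisons, 7 red points are filled and no blue point is.

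Since most of the 40 genes tend to rise and fall together from library to library, each gene was also set against the other mitosis genes. Cdc25b, Plk1 and Gtse1 followed this pattern less. For each library, the gene's log2 deviation from its own mean over the 6 libraries of the table was taken relative to the median deviation of the 40 genes. On this measure, which is a description with no test, 5 genes lay above all controls in every Smad4 KO library and 7 lay below. In the double mutants 5 lay above and 5 below. The measure is centred on the 40 genes, so some must lie low where others lie high. It was not taken over all genes. On uncentred values, 14.2% of all genes lay above and 12.2% below in Smad4 KO, and 21.3% each way in double mutants. The counts are therefore not read as a result about the group. Gtse1 was higher relative to the other mitosis genes by 1.24 (Smad4 KO) and 1.07 (double mutants), without overlap in either. Incenp was higher by 0.31 and 0.32, and Cdc20 by 0.28 and 0.29, again without overlap. Plk1 was higher by 0.43 and 0.48, without overlap in the double mutants only.

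Nusap1 lay below the other mitosis genes by -0.69 in Smad4 KO and -0.60 in double mutants, without overlap in either comparison. Kif2c had -0.18 in both comparisons and Kif4 had -0.10 and -0.15, also without overlap. Cenpf had -0.29 and -0.30, without overlap in Smad4 KO only. Ccna2 lay below by -0.28 in Smad4 KO. The comparisons share their controls, so their agreement on a gene is not independent.

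**Figure D5:**
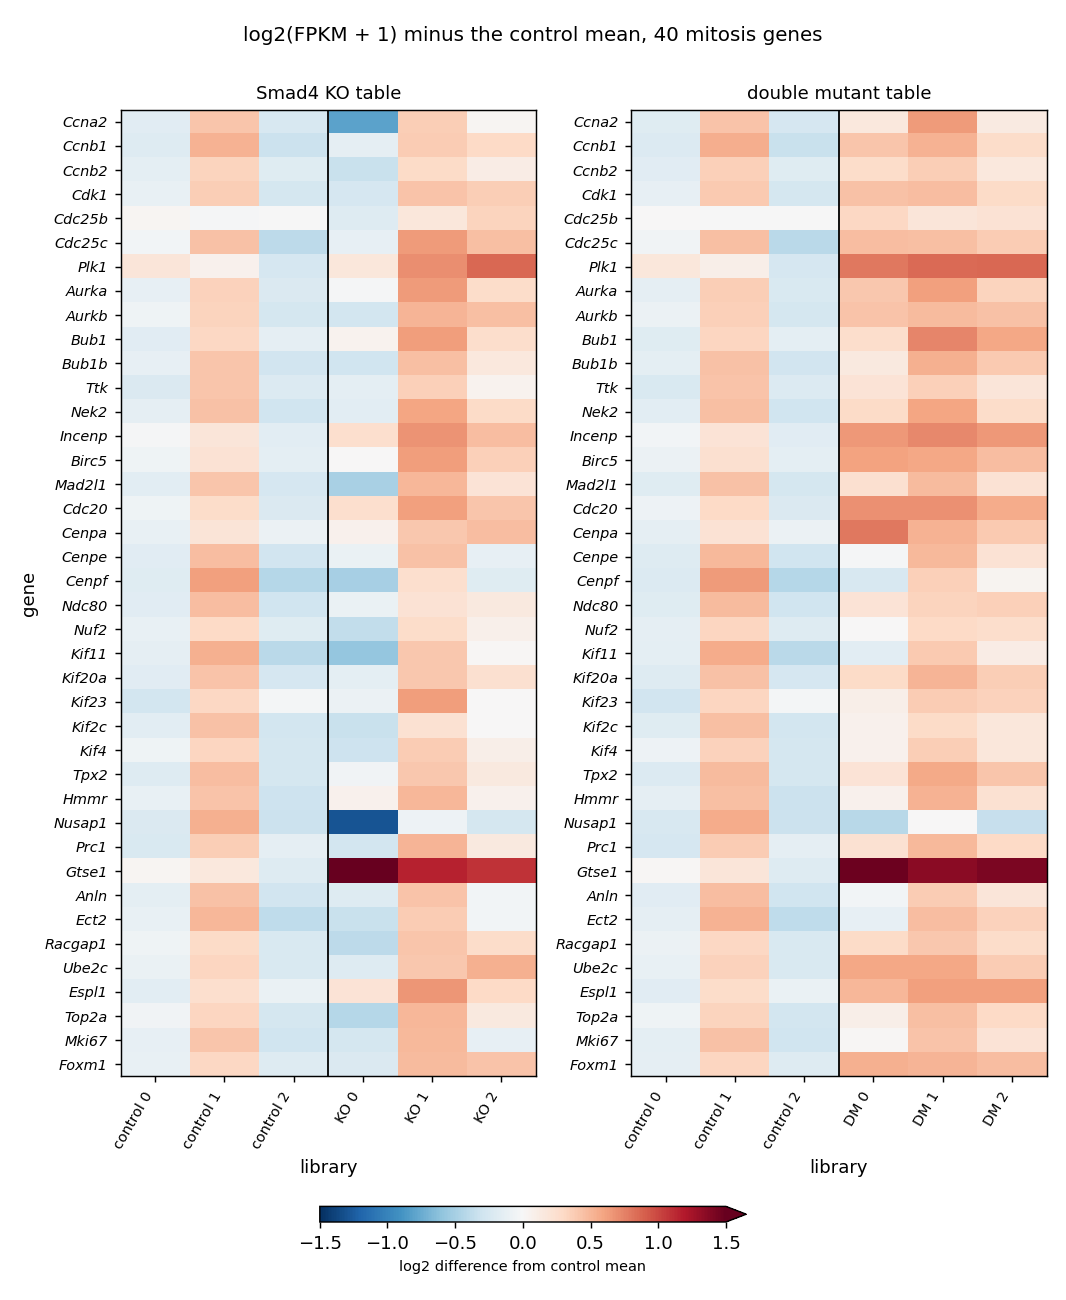
Log2(FPKM + 1) minus the control mean for 40 mitosis genes (rows, grouped by role) in each library (columns), Smad4 KO table at the left and double mutant table at the right, with the colour scale ending at 1.5. Control 1, Smad4 KO 1, Smad4 KO 2 and all double mutant columns are mostly red, Smad4 KO 0 is mostly blue, and the Gtse1 row is the darkest red in all 6 mutant columns.

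Some rows of the tables can carry reads of more than 1 gene, because the library kit does not mark strand. In the GENCODE M21 annotation, exons of 7 members overlap exons of a gene on the opposite strand that was also expressed: Ccna2 with Exosc9, Cdc20 with Elovl1, Cdc25b with Spef1, Kif20a with Cdc23, Kif4 with Pdzd11, Nusap1 with Oip5 and Prc1 with Rccd1. The overlap was 1271 bases for Kif20a, 911 for Prc1, 832 for Kif4 and 510 for Ccna2. It was 172 bases for Nusap1, 92 for Cdc25b and 53 for Cdc20. Oip5, a centromere protein, was 6.96, 10.1 and 6.07 FPKM in controls and 6.01, 7.51 and 7.43 in double mutants (log2 fold change -0.10, adjusted p = 0.725). Ccnb1, Ccnb2 and Kif4 have pseudogene copies, and how their reads were counted is unknown.

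Other genes of the cell cycle were taken from lists that do not include the 40 genes. Of 80 other mitosis genes tested, 14 were called higher in the double mutants and none lower, against 9.39% and 9.09% of all genes, with a median log2 fold change of 0.32. In 34 every double mutant library lay above every control, against 21.3% of all genes. The 14 calls became 7, 21 and 6 without controls 0, 1 and 2 and 1, 5 and 0 without double mutants 0, 1 and 2. Psrc1, a spindle protein, was 4.61, 5.15 and 4.15 FPKM in controls and 21.6, 12.6 and 19.9 in double mutants, so that all double mutants lay above all controls (1.73, SE 0.21, adjusted p = 0.0118). In Smad4 KO it was 4.47, 4.86 and 3.98 against 54.3, 9.82 and 13 (1.91, SE 0.60, adjusted p = 0.19), with Smad4 KO 0 the highest, as for Gtse1. Without Smad4 KO 0 the fold change was 1.18 (adjusted p = 0.113), and without double mutant 2 the double mutant value was 1.64 (adjusted p = 0.0628). Both values of Psrc1 were added after its levels were seen. The checkpoint protein Zwilch rose by 0.74 in double mutants (adjusted p = 0.0126) and Cdca8, the passenger subunit borealin, by 0.66 (adjusted p = 0.028). In Smad4 KO none of the 80 was called, and the median was 0.12.

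Of 46 S phase genes, 24 were called higher in the double mutants and none lower, against 9.39% and 9.09% of all genes, with a median of 0.43. Another 20 had positive fold changes that were not called, and 2 had negative ones. In 33 every double mutant library lay above every control, against 21.3% of all genes. The 24 calls fell to 7, 14 and 7 without controls 0, 1 and 2, to 0, 2 and 0 without double mutants 0, 1 and 2, and to 10 with a replicate block, while the median stayed between 0.36 and 0.50 with 1 library left out. Rrm2, a subunit of ribonucleotide reductase, rose by 0.75 (adjusted p = 0.0127), and the origin-licensing gene Cdc6 by 0.66 (adjusted p = 0.0181). In Smad4 KO none was called, with a median of 0.23. Whether the S phase list differs from the 40 mitosis genes was not tested.

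Regulators of the mitotic genes were split. The list of 20 held members of the MuvB, MYB, E2F and RB families, with Cdkn1a and Trp53. Of these, 5 were called higher and 3 lower in the double mutants (median 0.15), against 9.39% and 9.09% of all genes. With 1 library left out, the counts were 0 to 3 higher and 0 to 2 lower, and none was called either way without double mutant 0 or double mutant 2. With sex as a covariate or a replicate block, 2 were higher. Tfdp1, the partner of E2F proteins, rose by 0.63 (adjusted p = 0.0131), E2f4 by 0.45 (adjusted p = 0.0201) and Mybl2 (B-MYB) by 0.49 (adjusted p = 0.0384). E2f1 and E2f3 were also called higher. Rb1, the retinoblastoma protein, was 21.5, 19 and 25.9 FPKM in controls and 11.4, 13.7 and 10.9 in double mutants, below every control (-0.83, SE 0.14, adjusted p = 0.0201). Its relative Rbl2, a DREAM subunit, was 12.2, 13.8 and 12.5 against 6.6, 8.31 and 7.37 (-0.72, SE 0.11, adjusted p = 0.0164), and Tfdp2 fell by 0.66 (adjusted p = 0.0491). In Smad4 KO no regulator was called. Rbl2 was 11.8, 13 and 12 against 7.83, 7.43 and 7.74 there, below every control in each library (-0.61, SE 0.09, adjusted p = 0.106), and Rb1 had -0.62 (adjusted p = 0.143).

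The 15 genes counted as subunits of the anaphase-promoting complex include Ube2s, a ubiquitin-conjugating enzyme. In the double mutants 2 of them were called higher, Anapc15 by 0.56 (adjusted p = 0.0273) and Cdc16 by 0.33 (adjusted p = 0.0474). None was called lower (median 0.21), where 9.39% of all genes were called higher and 9.09% lower. In 6 every double mutant library lay above every control and in 1 below, against 21.3% of all genes each way. With 1 library left out, 1 was called higher without control 2 and none in the other 5 fits. Anapc13 was 158, 221 and 180 FPKM in controls against 127, 131 and 124, below every control and at the edge of the threshold (-0.53, adjusted p = 0.05). None was called in Smad4 KO (median 0.10).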

How the data were processed

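RNA was measured by sequencing (TruSeq RNA Library Prep kit v2) in 9 libraries of jejunal crypts, which the labels' protocols say were freed by 3 mM EDTA and filtered at 70 micron. The values deposited by the authors were FPKM per gene, made with TopHat2 2.1.1, Cuffnorm 2.2.1 and Cuffdiff 2.2.1 on mm9, per the submitters' processing notes. Which annotation was used is not stated. FPKM hold no read numbers, and the spacing of low values gave no single stable estimate of relative depth, so depth is unknown and counting intervals are left out.

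Fits were made per table (2 tables) by limma 3.58.1 under R 4.3.3, using log2(FPKM + 1) and a mean-variance trend. A gene entered where its 6 libraries averaged 1 FPKM or more. The pseudocount of 1 understates changes of low genes. Tests were two-sided, p-values were adjusted by Benjamini-Hochberg over all genes tested, and genes were called at an adjusted p below 0.05. All 40 members passed the filter in both tables, and all are named, by role. From other lists, genes with the smallest p and neighbours of members were named, some after their values were seen. Of 85 symbols listed for other mitosis genes, 80 were in the tables. The rest, Knl1, Sgo1, Sgo2a, Pimreg and Haspin, are other names of Casc5, Sgol1, Sgol2, Fam64a and Gsg2, which were found. The scripts were tested on simulated data. Members and lists were chosen with earlier results of these data known. Alternatives were the pseudocount, the filter, the trend, the scaling, the estimate of the spread, a replicate block, sex and each library left out.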

Additional observations from a re-analysis of the deposited data

How the results depend on the processing

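Leaving out 1 library at a time, the double mutant comparison gave 0 to 18 of the 40 mitosis genes called higher, 0 to 21 other mitosis genes, 0 to 14 S phase genes, 0 to 3 regulators higher and 0 to 2 lower, and 0 to 1 anaphase-promoting complex subunits in either direction. All genes called ran from 18 to 688 higher and 12 to 898 lower, and the median of the regulators from 0.10 to 0.25. In Smad4 KO, genes called ran from 2 to 8 higher and 3 to 8 lower, and medians from 0.12 to 0.44 (S phase), -0.027 to 0.17 (anaphase-promoting complex) and 0.047 to 0.18 (regulators). With 1 library fewer the remaining libraries of both groups share 1 estimate of the spread.

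Other settings changed these counts. In Smad4 KO, genes called higher were 3 with a pseudocount of 0.1, 0 with a pseudocount of 5, 2 among genes of at least 5 FPKM, 4 after quantile normalization, and 0 with sex as a covariate. With the double mutants added to the estimate of the spread, 274 genes were higher and 177 lower, with 1 mitosis gene, 2 other mitosis genes, 1 S phase gene and 1 regulator higher and 1 regulator lower. In the double mutants, no filter on low values left 621 genes lower, 3 mitosis genes, 9 other mitosis genes, 2 regulators, 1 anaphase-promoting complex subunit and 14 S phase genes higher. Of the mitosis genes, 5 were called with sex as a covariate (Espl1 and Cenpa lost), 6 without a mean-variance trend (Cenpa lost) and 6 with Smad4 KO added to the spread (Birc5 lost). Without a mean-variance trend 1 subunit was higher, and 1 was lower with a pseudocount of 0.1 or median-of-ratios scaling. Adding Smad4 KO to the spread gave 3 regulators, 1 subunit and 13 S phase genes higher, and sex as a covariate gave 2 regulators and 0 subunits. The cause was not tested.

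Whether the replicate numbers pair the libraries was not settled. Same-numbered deviations correlated at -0.11, 0.22 and -0.10 in Smad4 KO, where only library 1 correlated best with its own number. In the double mutants they correlated at 0.07, 0.13 and 0.04, weak values, but every library correlated best with its own number. With the replicate block, Smad4 KO had 0 genes higher and 1 lower, and the double mutants 732 genes, 2 regulators, 1 subunit and 10 S phase genes higher. It left 7 mitosis genes called, 6 of them shared, with Bub1 in place of Cenpa.

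Single mitosis genes near 0 changed sign. In Smad4 KO these were Ect2 with a pseudocount of 5 (-0.000475) and median-of-ratios scaling (-0.00341), and Ccnb2 (-0.023) and Mad2l1 (-0.00278) with sex as a covariate. Over the fits with 1 library left out, the Smad4 KO fold changes that took both signs were Anln -0.12 to 0.28, Bub1b -0.070 to 0.31, Ccna2 -0.38 to 0.20, Ccnb2 -0.11 to 0.20, Cdc25b -0.011 to 0.25, Cenpe -0.11 to 0.31, Cenpf -0.36 to 0.16, Ect2 -0.19 to 0.25, Kif11 -0.28 to 0.21, Kif23 -0.037 to 0.34, Kif2c -0.17 to 0.18, Kif4 -0.11 to 0.23, Mad2l1 -0.14 to 0.35, Mki67 -0.19 to 0.24, Ndc80 -0.061 to 0.32, Nuf2 -0.14 to 0.18, Prc1 -0.065 to 0.33, Racgap1 -0.057 to 0.35, Top2a -0.14 to 0.32 and Ttk -0.047 to 0.29. In the double mutants they were Cenpf -0.16 to 0.37, Kif11 -0.088 to 0.39 and Nusap1 -0.41 to 0.026. None of these was called. Depth is unknown, so its limit on the low genes cannot be stated.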
